A study of Homo sapiens with 6 samples.

Results

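The 10 genes described here encode proteases that cut the extracellular matrix, the activators that generate plasmin, and proteins that hold these enzymes in check: MMP1, MMP2, MMP3, MMP14, TIMP1, TIMP2, ADAMTS1, PLAU, PLAT and PLAUR. They were chosen by name, as named genes of matrix proteolysis, from the 67130 genes listed with expression values. The choice was made with earlier results of these data known. Their RNA was measured in hTERT-RPE1-TOShOFD1 cells, a human retinal pigment epithelial line immortalised with telomerase that carries a lentiviral, doxycycline-inducible short hairpin RNA against OFD1, a protein of centrioles and centriolar satellites. The 3 control samples are listed at 72 hours with no doxycycline dose, and the 3 OFD1-depleted samples at 72 hours with 200 ng/mL doxycycline. Both groups carry the hairpin construct, are from the same cell line, and were grown in medium with serum. The labels give the genotype as WT for the controls and OFD1 knockdown for the treated cells. No group received doxycycline without a hairpin against OFD1, so an effect of the drug and an effect of OFD1 loss cannot be told apart. Doxycycline is known to inhibit matrix metalloproteinase enzymes directly, but the values here are of RNA and not of enzyme activity. The study's heatmap legend calls its RNA columns biological replicates, but nothing in the labels says that they were separate cultures, so the p-values measure the spread between these samples, which may be technical.

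Matrix metalloproteinases (MMPs) are secreted or membrane-anchored zinc enzymes made as inactive proenzymes, and the tissue inhibitors of metalloproteinases (TIMPs) block their active sites. MMP14, a membrane-anchored enzyme, activates pro-MMP2 on the cell surface with TIMP2 as the bridge between them. In the plasminogen system, urokinase (PLAU), held on the cell surface by its receptor (PLAUR), and tissue plasminogen activator (PLAT) convert plasminogen to plasmin, while serpins such as SERPINE2 and SERPINB2 inhibit the activators. Retinal pigment epithelium rests on Bruch's membrane, a matrix that such enzymes remodel.

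Expression was given as FPKM (fragments counted on a transcript, divided by its length and by the sample's mapped fragments). OFD1 was listed at 3.34, 3.62 and 3.44 FPKM in the controls and at 0.795, 0.763 and 1.43 FPKM in the depleted samples, a fall to 28.7% of the control mean (log2 fold change -1.75, limma adjusted p = 0.00085). Summed FPKM ran from 408300 to 414500 in the controls and from 433300 to 493500 in the depleted samples, and mitochondrially encoded genes took 8.66 to 13.8% of it in the controls and 15.6 to 19.3% in the depleted samples, without overlap. Of 9 markers of retinal pigment epithelium only MITF and OTX2 reached a mean of 1 FPKM, TTR was listed at 0 throughout, and the sum of the 9 was 7.98 to 8.91 FPKM in the controls and 9.90 to 13.1 FPKM in the depleted samples, where the highest value included 4.33 FPKM of BEST1 in 1 sample. Of 4 epithelial markers KRT8 and KRT18 were present and EPCAM was listed at 0, with sums of 254 to 272 FPKM against 294 to 408 FPKM, while 4 of 5 mesenchymal markers were present with sums of 4286 to 4570 FPKM against 3684 to 3961 FPKM. Markers of neural retina (at most 0.286 FPKM summed over 4 genes, with CRX and PDE6B among those listed at 0) and of endothelium (at most 0.817 FPKM over 3) were near 0, and of 3 leukocyte markers only CD68, also a lysosomal gene of other cells, reached 1 FPKM, with sums of 35.7 to 40.8 FPKM and 31.5 to 40.1 FPKM. The part of the mitochondrial share and of the epithelial and mesenchymal markers in the results below was not tested. In these bulk samples fewer cells of a kind and less RNA per cell cannot be told apart.

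Of the 10 genes, 8 averaged 1 FPKM or more and were tested with limma among 12025 genes. The 3 genes of plasminogen activation, PLAU, PLAT and PLAUR, fell in OFD1-depleted cells, to between 46.3 and 62.7% of the control mean. None of the 8 rose past the threshold, an adjusted p of 0.05, and 5 did not pass it (MMP2, MMP14, TIMP1, TIMP2 and ADAMTS1). Among all genes tested 11.9% were lower and 5.07% higher past the same threshold, against 3 and 0 of the 8. At an unadjusted p under 0.05, 5 of the 8 were lower and 0 were higher, beside 19.1% and 11.5% of all genes tested. The median log2 fold change of the 8 was -0.39, beside -0.03 over all genes tested. In 5 of the 8 (PLAU, PLAT, PLAUR, MMP14 and ADAMTS1) all depleted samples lay below all controls, a pattern shown by 22.3% of all genes tested. The opposite pattern, with all depleted samples above all controls, was shown by 13.8% of all genes and by 0 of the 8. Because the genes were chosen with earlier results of these data known, these comparisons with all genes are a description.

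**Figure D1:**
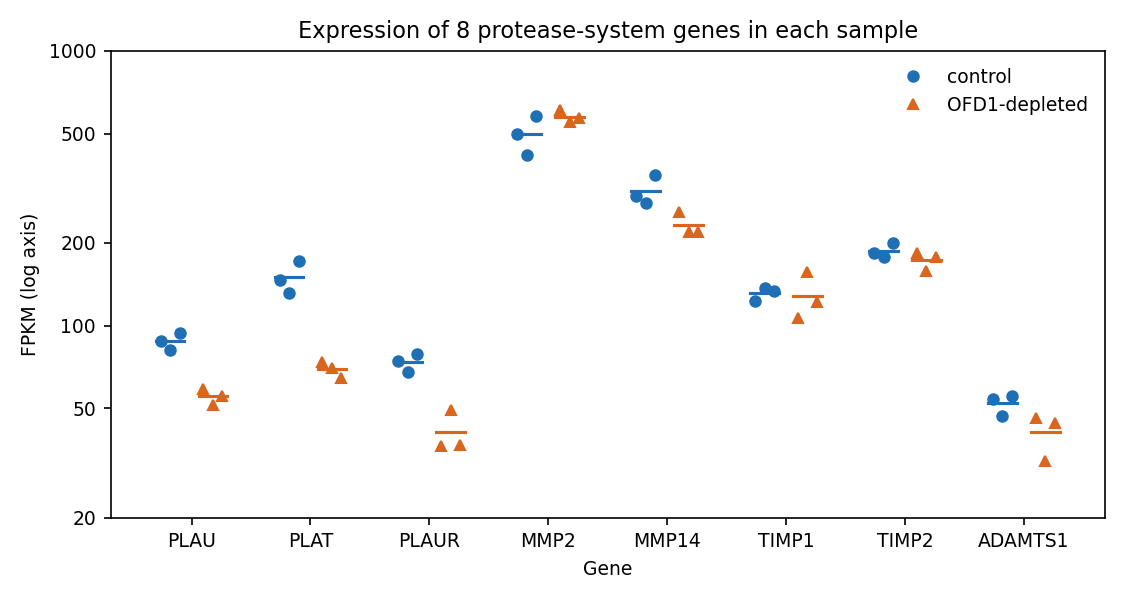
Expression of the 8 tested genes in FPKM (vertical log axis) in each of 3 control samples (circles) and 3 OFD1-depleted samples (triangles), with a horizontal line at each group mean. The groups stand apart for PLAU, PLAT, PLAUR, MMP14 and ADAMTS1 and overlap for MMP2, TIMP1 and TIMP2, and MMP2 is the most expressed of the 8 in every sample.

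The levels of the genes spanned a wide range. In control cells the order by mean FPKM was MMP2, MMP14, TIMP2, PLAT, TIMP1, PLAU, PLAUR and ADAMTS1, with MMP1 and MMP3 near or at 0. Neighbours in this order did not overlap in their 3 values except PLAT and TIMP1, which ran from 131 to 172 FPKM and from 123 to 137 FPKM. In depleted cells PLAT stood below TIMP1, and PLAUR and ADAMTS1 shared a mean of 40.9 FPKM with overlapping samples. MMP2 ranked 113 and ADAMTS1 ranked 1395 by mean FPKM among all genes listed.

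PLAU and PLAT encode the serine proteases that cleave plasminogen, and PLAUR the surface receptor of urokinase. PLAU (chr10:73909177-73917496, plus strand) was at 88.1, 81.9 and 94.4 FPKM in the controls and at 58.8, 51.3 and 55.7 FPKM in the depleted samples. Every depleted sample lay well below the lowest control. The mean fell from 88.1 ± 6.25 to 55.3 ± 3.75 FPKM (SD, n = 3 each), a log2 fold change of -0.67 (SE 0.124, 95% interval -0.94 to -0.40, limma adjusted p = 0.00365).

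PLAT (chr8:42174718-42207709, minus strand) showed the largest fall of the 8. It was at 147, 131 and 172 FPKM in the controls and at 73.9, 70.1 and 64.6 FPKM in the depleted samples. The groups did not overlap, and the controls were more spread than the depleted samples. The mean fell from 150 ± 20.8 to 69.5 ± 4.67 FPKM (SD, n = 3 each), a log2 fold change of -1.10 (SE 0.138, 95% interval -1.41 to -0.80, limma adjusted p = 0.000327).

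PLAUR (chr19:43646095-43670547, minus strand) was at 74.7, 67.8 and 78.5 FPKM in the controls and at 36.5, 49.3 and 36.8 FPKM in the depleted samples. The groups did not overlap, and depleted replicate 2 was the highest of its group. The mean fell from 73.7 ± 5.44 to 40.9 ± 7.27 FPKM (SD, n = 3 each), a log2 fold change of -0.86 (SE 0.146, 95% interval -1.18 to -0.54, limma adjusted p = 0.00224). For PLAU, PLAT and PLAUR the fall stayed past the threshold under each of 17 alternatives, which include leaving out each of the 6 samples. PLAU overlaps the opposite-strand transcript C10orf55, listed at a mean of 0.988 FPKM in the controls and 1.14 FPKM in the depleted samples, a level far below that of PLAU.

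The stretch of 200 bases before the RefSeq start is shown for PLAU, PLAUR and SERPINB2, because these are genes of plasminogen activation that passed the test, in either direction, and have an entry in the promoter table. The table held 4 of the 10 genes (PLAU, PLAUR, MMP14 and TIMP1). The sequences are from RefSeq (GRCh38.p14), read in the direction of the gene, at chr10:73910410-73910609 (plus strand), chr19:43670170-43670369 (minus strand) and chr18:63887505-63887704 (plus strand). Capitals mark matches to the motifs searched, TGAGTCA (the AP-1 site), TATAAA (the TATA box) and GGGCGG (the GC box), each on both strands.
PLAU: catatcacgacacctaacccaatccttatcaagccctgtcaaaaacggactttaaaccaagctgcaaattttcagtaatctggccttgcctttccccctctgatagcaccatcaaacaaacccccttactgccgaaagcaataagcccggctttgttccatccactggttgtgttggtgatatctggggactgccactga
PLAUR: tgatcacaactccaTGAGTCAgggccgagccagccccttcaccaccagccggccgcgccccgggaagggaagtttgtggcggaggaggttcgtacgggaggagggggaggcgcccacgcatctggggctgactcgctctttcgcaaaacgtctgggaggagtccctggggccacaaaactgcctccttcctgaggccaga
SERPINB2: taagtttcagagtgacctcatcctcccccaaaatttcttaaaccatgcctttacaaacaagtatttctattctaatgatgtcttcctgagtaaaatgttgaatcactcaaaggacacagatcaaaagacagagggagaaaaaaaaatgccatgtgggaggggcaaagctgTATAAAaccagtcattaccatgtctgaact
PLAUR held TGAGTCA, with its first base at position -186 counted from the start, and SERPINB2 held TATAAA at -30. The RefSeq starts of PLAU, PLAUR and SERPINB2 lie within the longer spans that the deposited table gives for these genes. No match to the 3 motifs was found in the 300-base window of PLAU. The window of MMP14 held GGGCGG once, and that of TIMP1 held it on the opposite strand at 2 places. Over all 35116 promoter windows of 300 bases in the table, 4.95% held TGAGTCA, 11.5% TATAAA and 45.0% GGGCGG, so that the match in MMP14 or TIMP1 is one many genes share. A match is a description of the letters, and binding was not measured. The promoters of MMP1, MMP2, MMP3, TIMP2, ADAMTS1 and PLAT were not analysed here. Matches of the hairpin's guide strand to the RNAs of these genes were not analysed here.

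**Figure D2:**
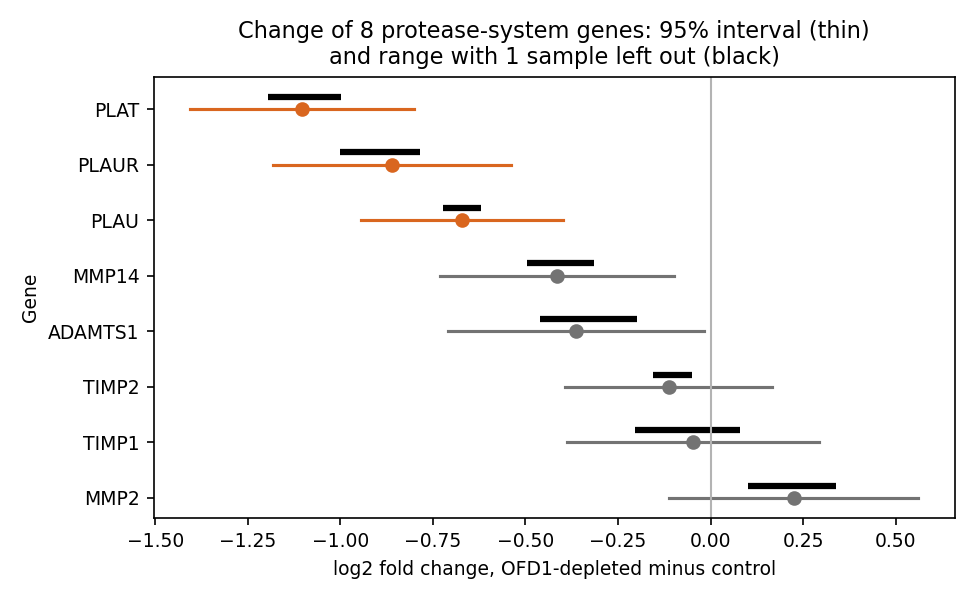
Log2 fold change (OFD1-depleted minus control, horizontal axis) of the 8 tested genes (vertical axis), with the 95% interval as a thin line, the range with 1 sample left out as a black bar, and genes past the threshold in orange. PLAT, PLAUR and PLAU are past the threshold at -1.10, -0.86 and -0.67, and only TIMP1 has leave-one-out values on both sides of 0.

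Neither MMP2 nor MMP14 passed the test, and their differences were of opposite sign. MMP2, the gelatinase that cuts denatured collagen and basement membrane collagen, was the most abundant of the 10 (chr16:55389700-55506691, plus strand). It was at 499, 416 and 577 FPKM in the controls and at 607, 551 and 570 FPKM in the depleted samples. The depleted samples lay within or above the control range, and the groups overlapped. The means were 498 ± 80.8 and 576 ± 28.4 FPKM (SD, n = 3 each), a log2 difference of 0.22 (SE 0.153, 95% interval -0.11 to 0.56, limma adjusted p = 0.361). With every sample scaled to the same total the log2 difference was 0.08, and after quantile normalization it was 0.03. The median of all genes was itself shifted by -0.145 under the first and by 0.077 under the second. The span of MMP2 also holds a same-strand transcript, AC007336.3, which was listed at a mean of 3.35 FPKM in the controls and 0.00128 FPKM in the depleted samples.

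MMP14, the membrane-anchored activator of pro-MMP2 (chr14:22836560-22849041, plus strand), was at 297, 279 and 355 FPKM in the controls and at 259, 218 and 219 FPKM in the depleted samples. All 3 depleted samples lay below the lowest control. The means were 310 ± 39.5 and 232 ± 22.9 FPKM (SD, n = 3 each), a log2 difference of -0.41 (SE 0.144, 95% interval -0.73 to -0.10) with an unadjusted p of 0.0147 and a limma adjusted p of 0.0721. This did not pass the threshold as tested, but with every sample scaled to the same total it did (log2 difference -0.56, limma adjusted p = 0.0171), where the median of all genes was itself shifted by -0.145. The exact permutation test of 3 against 3 samples, two-sided, cannot go below its smallest p of 0.1. It gave this value for MMP14 and equally for PLAU, PLAT, PLAUR and ADAMTS1.

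MMP1 and MMP3, the interstitial collagenase and stromelysin-1, were listed near or at 0. MMP1 (chr11:102789401-102798160) was listed at 0.0216, 0.0271 and 0 FPKM in the controls and at 0, 0.042 and 0 FPKM in the depleted samples. MMP3 was listed at 0 in all 6 samples. Both lie in a cluster of 9 MMP genes on chromosome 11 (102520508 to 102955732), in which MMP7 had the highest value, 0.0851 FPKM in 1 sample, and 6 of the 9 genes were listed at 0 throughout. No comparison was made for MMP1 and MMP3. The file gives no counts, and 4381 of 19962 protein-coding genes were listed at 0 in every sample, so a value of 0 says only that a gene is listed at 0.

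TIMP1 and TIMP2 encode inhibitors of the MMPs, and TIMP2 also takes part in the activation of pro-MMP2. TIMP1 (chrX:47582408-47586789, plus strand) was at 123, 137 and 133 FPKM in the controls and at 106, 157 and 122 FPKM in the depleted samples. The groups overlapped, and the depleted samples held both the lowest and the highest value. The means were 131 ± 7.16 and 128 ± 26.1 FPKM (SD, n = 3 each), a log2 difference of -0.05 (SE 0.155, 95% interval -0.39 to 0.29, limma adjusted p = 0.866). Its sign turned under median-of-ratios scaling (0.004) and without OFD1-depleted replicate 1 (0.08).

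TIMP2 (chr17:78852977-78925387, minus strand) was at 184, 178 and 200 FPKM in the controls and at 184, 159 and 178 FPKM in the depleted samples. The groups overlapped. The means were 187 ± 11.5 and 173 ± 13.1 FPKM (SD, n = 3 each), a log2 difference of -0.11 (SE 0.127, 95% interval -0.39 to 0.17, limma adjusted p = 0.595). These intervals allow for changes of either sign, and the test does not show that the 2 inhibitors stayed at the same level.

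ADAMTS1, a secreted metalloproteinase that cuts aggrecan and versican (chr21:26835755-26845409, minus strand), was at 53.9, 46.8 and 55.7 FPKM in the controls and at 46.3, 32.1 and 44.3 FPKM in the depleted samples. The highest depleted sample lay just below the lowest control, so the groups did not overlap by a narrow margin. The means were 52.1 ± 4.72 and 40.9 ± 7.64 FPKM (SD, n = 3 each), a log2 difference of -0.36 (SE 0.157, 95% interval -0.71 to -0.02) with an unadjusted p of 0.0409 and a limma adjusted p of 0.142, and none of 17 alternatives took it past the threshold.

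Ratios within a sample do not change when a sample is multiplied by a scaling factor, though they can under quantile normalization, and 6 of 8 pairs could be given, since MMP1 was under 0.1 FPKM in every sample. The ratio of MMP2 to MMP14 was 1.68, 1.49 and 1.63 in the controls and 2.35, 2.53 and 2.60 in the depleted samples, a 1.56-fold higher value (log2 difference 0.64). The groups did not overlap. The ratio of MMP2 to TIMP2 was 2.71, 2.34 and 2.89 against 3.31, 3.48 and 3.21 (log2 difference 0.34, or 0.22 after quantile normalization), and that of MMP14 to TIMP2 was 1.61, 1.57 and 1.77 against 1.41, 1.38 and 1.24 (log2 difference -0.30). The groups did not overlap for either pair, with the first ratio higher and the other lower in the depleted samples.

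The same was done for the activators. The ratio of PLAU to PLAT was 0.600, 0.624 and 0.548 in the controls and 0.796, 0.733 and 0.862 in the depleted samples (log2 difference 0.43), without overlap. The ratio of PLAU to PLAUR was 1.18, 1.21 and 1.20 against 1.61, 1.04 and 1.51 (log2 difference 0.19, exact permutation p = 0.4), with overlap, depleted replicate 2 being the lowest of all. The log2 difference of TIMP1 to TIMP2 was 0.07, with overlap (exact permutation p = 0.8). In all, 4 of the 6 pairs did not overlap. Each of the 4 had an exact permutation p of 0.1, the smallest 3 against 3 samples can give. The exact permutation p adjusted over the 6 pairs was 0.15 for each, so none passed 0.05. The pairs among MMP2, MMP14 and TIMP2 are not separate results, since any of these ratios follows from the others. Among single genes tested 22.3% were lower and 13.8% higher without overlap, and the share among all pairs of genes was not computed.

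**Figure D3:**
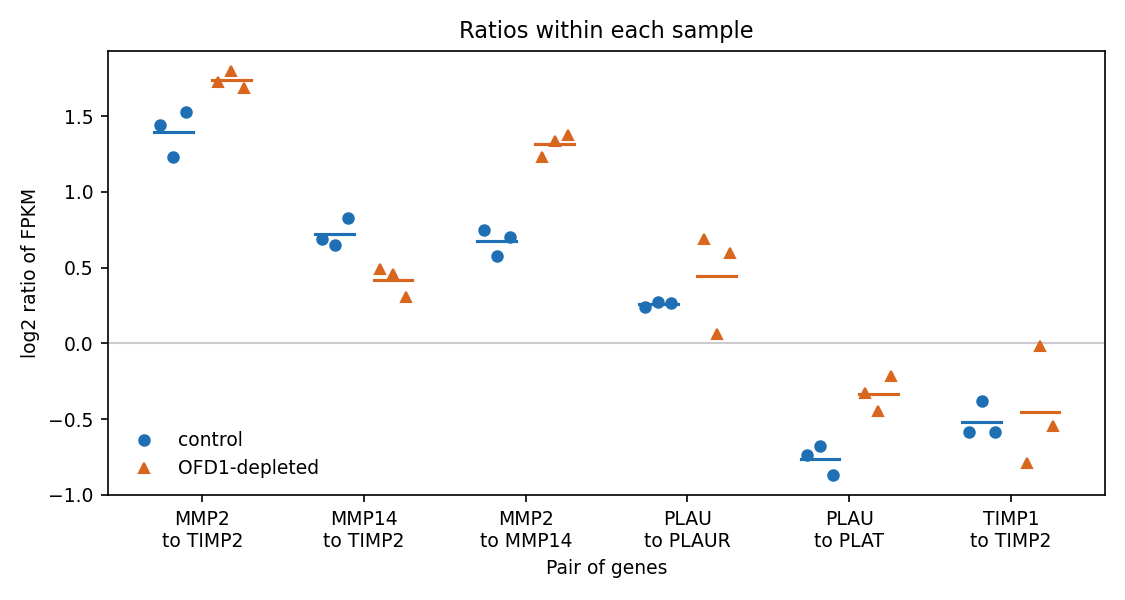
Log2 ratio of FPKM within each sample (vertical axis) for 6 pairs of genes (horizontal axis), with circles for 3 control samples, triangles for 3 OFD1-depleted samples and a line at each group mean. MMP2 to MMP14 shows the largest gain of these pairs at 0.64, MMP14 to TIMP2 is lower by a log2 difference of -0.30, and PLAU to PLAUR and TIMP1 to TIMP2 overlap.

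Set against the sum of the 10 genes, which was 1467, 1337 and 1666 FPKM in the controls and 1371, 1288 and 1290 FPKM in the depleted samples, MMP2 took a larger share and the activators a smaller one. The share of MMP2 was 34.0, 31.1 and 34.7% in the controls and 44.3, 42.8 and 44.2% in the depleted samples. The share of PLAT was 10.0, 9.81 and 10.4% against 5.39, 5.44 and 5.01%, and that of PLAU was 6.01, 6.12 and 5.67% against 4.29, 3.99 and 4.32%. These shares are of a sum that the genes' own changes move, so they are a description.

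Of 2 inhibitors described here, which are not all the inhibitors of the activators, SERPINB2 passed the test and SERPINE2 did not. SERPINE2 was added after its values were seen. SERPINB2, plasminogen activator inhibitor type 2, was at 73.2, 82.2 and 73.9 FPKM in the controls and at 224, 195 and 218 FPKM in the depleted samples. All depleted samples lay far above all controls. It rose 2.78-fold, from 76.5 ± 5.02 to 212 ± 15.4 FPKM (SD, n = 3 each), a log2 fold change of 1.47 (SE 0.126, limma adjusted p = 3.34e-05), and stayed past the threshold under all 17 alternatives. SERPINE2, a protease nexin, was at 86.0 ± 6.60 and 81.9 ± 8.51 FPKM (log2 difference -0.07, limma adjusted p = 0.748), with overlap.

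The sum of PLAU and PLAT was 235, 213 and 267 FPKM in the controls and 133, 121 and 120 FPKM in the depleted samples. All depleted samples lay below the lowest control. The ratios of each activator to SERPINB2 were looked at after their values had been seen, and are given as a description: PLAU to SERPINB2 was 4.42-fold lower and PLAT to SERPINB2 was 5.96-fold lower in the depleted samples.

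**Figure D4:**
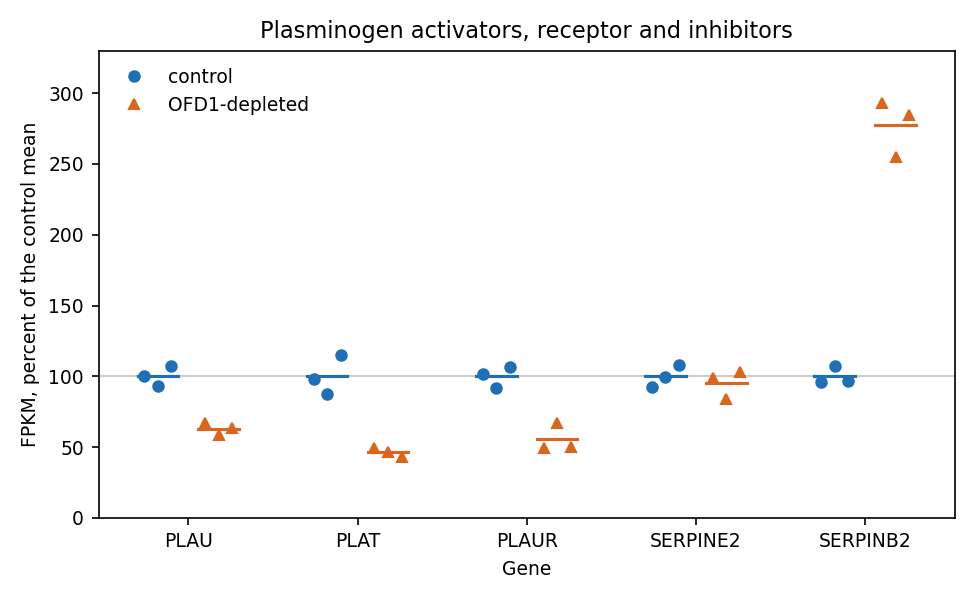
FPKM as a percent of the control mean (vertical axis) for the activators PLAU and PLAT, the receptor PLAUR and the inhibitors SERPINE2 and SERPINB2 (horizontal axis), with circles for 3 control samples, triangles for 3 OFD1-depleted samples and lines at the means. PLAU, PLAT and PLAUR lie below the controls in every depleted sample, SERPINE2 overlaps, and SERPINB2 lies above 250% in every depleted sample.

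Other genes of the same systems came from 6 lists of 81 genes, of which 39 were tested. Past the threshold, 5 were lower and 4 higher, and 30 did not pass, with a median log2 fold change of -0.09. The 5 lower genes are 12.8% of the 39, near the 11.9% of all genes tested, and the 4 higher are 10.3%, beside 5.07% of all genes. These lists too were chosen with earlier results of these data known. Of 19 other MMPs 5 were tested and 2 fell. MMP11, also called stromelysin-3, was at 5.54, 5.12 and 7.24 FPKM against 4.11, 3.85 and 2.71 FPKM (log2 fold change -0.74, limma adjusted p = 0.0275), and MMP17, a membrane-anchored MMP, was at 2.62, 1.89 and 2.13 FPKM against 0.636, 1.03 and 0.840 FPKM (-1.31, limma adjusted p = 0.00639). Neither gene's groups overlapped. MMP17 passed under all 16 alternatives that gave it a value, while MMP11 passed under 11 of 16, with limma adjusted p-values of 0.0598 without control replicate 1, 0.144 without control replicate 3 and 0.0969 without OFD1-depleted replicate 3. Of 4 other MMP inhibitors only RECK, a membrane protein that restrains MMPs, was tested, at 7.56 ± 1.16 and 7.94 ± 0.552 FPKM (log2 difference 0.08, limma adjusted p = 0.766), and TIMP3 was listed at 0 in all samples.

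Of 18 other ADAMTS genes 6 were tested, with 1 lower and 1 higher past the threshold. ADAMTS5, an aggrecanase, was at 1.53, 1.94 and 1.69 FPKM against 5.30, 3.38 and 5.17 FPKM (log2 fold change 1.35, limma adjusted p = 0.00146), and ADAMTS15 was at 11.01, 10.05 and 13.91 FPKM against 8.49, 6.37 and 7.98 FPKM (-0.60, limma adjusted p = 0.0295). ADAMTS5 rose in all depleted samples while ADAMTS15 fell, without overlap for either. ADAMTS15 lost its call without control replicate 1 (limma adjusted p = 0.0711), control replicate 3 (0.155) or OFD1-depleted replicate 3 (0.0574), among others, and passed under 11 of 17 alternatives. The most abundant of them, ADAMTS12, was at 26.3 ± 2.47 and 33.5 ± 7.63 FPKM (log2 difference 0.32, limma adjusted p = 0.239).

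Of 9 ADAMs, the membrane sheddases that release ectodomains, 7 were tested. ADAM10, the sheddase of Notch and N-cadherin, was at 13.2, 12.4 and 12.9 FPKM against 8.34, 6.43 and 9.03 FPKM (log2 fold change -0.70, limma adjusted p = 0.00882), and ADAM19 was at 57.8, 47.7 and 64.2 FPKM against 97.7, 70.4 and 88.5 FPKM (0.59, limma adjusted p = 0.0270). ADAM10 fell and ADAM19 rose, and the groups of neither overlapped. ADAM19 lost its call when samples were scaled to the same total (0.446, limma adjusted p = 0.1001), which shifted the median of all genes by -0.145. It passed under 8 of 17 alternatives. Its limma adjusted p was 0.073 without control replicate 1, 0.0959 without control replicate 2, 0.09998 without OFD1-depleted replicate 1 and 0.0741 without OFD1-depleted replicate 3. The fall of ADAM10 passed under 16 of 17 alternatives, the exception being no filter on low values (limma adjusted p = 0.0518). The most abundant, ADAM9, was at 161 ± 11.6 and 140 ± 24.2 FPKM (log2 difference -0.21, limma adjusted p = 0.374).

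Of 13 genes for plasminogen, its receptors and the activator inhibitors 10 were tested, with SERPINB2 higher and MRC2 lower past the threshold. MRC2, a collagen uptake receptor that binds PLAUR, was at 43.6, 31.5 and 53.3 FPKM against 27.99, 22.85 and 21.48 FPKM (log2 fold change -0.80, limma adjusted p = 0.0137). The depleted samples all lay below the lowest control, and the call was lost without control replicate 3 (limma adjusted p = 0.0684), without OFD1-depleted replicate 3 (0.05002) and with no filter on low values (0.1105). Plasminogen itself (PLG) was at most 0.0331 FPKM in any sample, and the plasminogen receptor subunit ANXA2 was at 1696 ± 133 and 1616 ± 99.4 FPKM (log2 difference -0.07, limma adjusted p = 0.802). Of 18 activators and other membrane or secreted proteases 10 were tested, and only CTSK, a cysteine protease that cuts collagen, passed. It was at 65.7, 71.4 and 61.1 FPKM against 95.9, 97.1 and 90.2 FPKM, a rise in every depleted sample (log2 fold change 0.52, limma adjusted p = 0.0145), though its limma adjusted p was 0.078 without control replicate 1, 0.0863 without control replicate 3 and 0.053 without OFD1-depleted replicate 1. BSG, the MMP inducer basigin, was the most abundant of these at 370 ± 34.9 and 400 ± 73.9 FPKM (log2 difference 0.10, limma adjusted p = 0.718).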

How the data were processed

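RNA was measured in 3 control and 3 OFD1-depleted samples of 1 cell line by RNA-seq. The authors prepared libraries with a directional kit, aligned reads to GRCh38 with HISAT2 2.0.5 and computed FPKM with StringTie (versions as the submitters' processing notes give them), and deposited 1 table of FPKM per gene with no counts. The label of the extraction text also mentions dissected retinas and another kit, while the growth text describes cultured cells. The strand setting of the counting is not given in the sources used here. A gene whose span overlaps another, such as TIMP1 within SYN1, may share fragments with it.

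Log2(FPKM + 0.1) was tested with limma 3.58.1 in R 4.3.3 (trended variance, two-sided, Benjamini-Hochberg adjustment over the genes that averaged 1 FPKM or more, threshold 0.05), so fold changes of low genes are understated. Genes named are OFD1, the 10 genes, every gene of each list past the threshold up to 6 a list, and the most abundant of each list. Some results the rule covers are not reported here. SERPINE2, PLG and the summed levels were added after their values were seen, as were TIMP3 and AC007336.3. Ratios were compared with two-sided exact permutation tests (scipy 1.17.1). FPKM hold no depth. Steps between low values gave about 37500000 to 44000000 fragments a sample if 1 step is 1 fragment, though only 8.22 to 11.3% of low values fell on the step, so this is approximate and entered no test. The methods were tested on simulated data. The members and lists were chosen with earlier results of these data known. Replicate numbers are shared between groups. Same-numbered samples correlated weakly and positively in their deviations from the group means, but not every sample correlated best with its own number. Samples were not treated as paired in the main test.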

Additional observations from a re-analysis of the deposited data

How the results depend on the processing

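Of 396 values from 27 results under 17 alternatives, 350 were the same, 34 were weaker, 9 were stronger and 3 changed sign. A fold change was the same if it kept its direction and its side of the threshold, whether past it or not. A ratio was judged by its direction alone. A count of genes was the same if it stayed within 1.5 times the main count. Weaker values lost the threshold or shrank by more, and stronger values gained it or grew by more. MMP14 passed the threshold with samples scaled to the same total (log2 fold change -0.562, limma adjusted p = 0.0171), after quantile normalization (-0.544), with array weights (-0.389), with the replicate block (-0.415) and with totals that leave out mitochondrially encoded genes (-0.474). The last scaling was chosen after seeing the data. The causes were not tested. TIMP1 turned to 0.004 under median-of-ratios scaling and ran from -0.203 to 0.078 with 1 sample left out, and the log2 ratio of TIMP1 to TIMP2 ran from -0.153 to 0.235 with 1 sample left out, its sign turning without OFD1-depleted replicate 2. The count of other system genes lower past the threshold, 5 in the main test, was 1 with no filter on low values, 3 among genes that averaged 5 FPKM or more, 9 with samples scaled to the same total, 11 with array weights and 2 to 7 with 1 sample left out (2 without control replicate 3, 2 without OFD1-depleted replicate 3, 3 without control replicate 1). The count higher, 4 in the main test, was 8 with array weights and 2 to 8 with 1 sample left out (2 without control replicate 1 or OFD1-depleted replicate 1, 8 without OFD1-depleted replicate 2). MMP11, MMP17 and ADAMTS5 gave no value at the filter of 5 FPKM. Calls lost with 1 sample left out were those of MMP11 and ADAMTS15 (without control replicate 1 or 3, or OFD1-depleted replicate 3), ADAM19 (without control replicate 1 or 2, or OFD1-depleted replicate 1 or 3), MRC2 (without control replicate 3 or OFD1-depleted replicate 3) and CTSK (without control replicate 1 or 3, or OFD1-depleted replicate 1). With the replicate block 4 of the 8 genes were lower past the threshold, where MMP14 gained it, and 7 other system genes were lower and 5 higher. Same-numbered samples correlated at 0.0579, 0.0481 and 0.011 in their deviations from the group means, and not every sample correlated best with its own number. Over all genes, calls numbered 1429 lower and 610 higher in the main test, and 1534 and 762 with the replicate block. They numbered 1988 and 268 with samples scaled to the same total, 1311 and 1093 after quantile normalization and 2263 and 1693 with array weights. With no filter they numbered 823 and 260 of 28501 genes, and among genes that averaged 5 FPKM or more 964 and 472 of 7883. Leaving out 1 sample also moved the calls over all genes. They numbered 904 and 251 without control replicate 1, 1020 and 453 without control replicate 2, and 867 and 244 without control replicate 3. Without OFD1-depleted replicates 1, 2 and 3 in turn they numbered 1309 and 321, 1741 and 1077, and 1051 and 398.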

Other observations

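TLL1, a tolloid-like protease that processes procollagen, was under the filter of 1 FPKM and was looked at after its values had been seen. It was at 0.0333, 0.0699 and 0.0559 FPKM in the controls and at 0.619, 0.456 and 0.710 FPKM in the depleted samples, so every depleted sample lay above every control. In the limma test with no filter its log2 fold change was 2.17 (adjusted p = 0.0189). FURIN, the proprotein convertase that activates MMP14, was at 47.6 ± 8.11 and 35.2 ± 1.59 FPKM (SD, n = 3 each), a log2 difference of -0.42 (limma adjusted p = 0.0724), without overlap between the groups. It too was chosen after its values had been seen.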
